A study of Mus musculus with 6 samples.

Results

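Long intergenic noncoding RNAs (lincRNAs) are transcripts from between the coding genes that are processed much like messenger RNA but hold no long reading frame. They were examined in wild type (WT) macrophages and in macrophages that lack progranulin (PGRN KO) after a challenge with live Candida albicans. The lincRNAs described here were chosen by 2 criteria, the gene type lincRNA in the deposited table and a mean of at least 1 FPKM over all 6 libraries, where FPKM is the number of fragments per kilobase of gene model, scaled to the size of the library. Of 5559 lincRNAs in the table, 63 met both criteria, out of 54532 genes of all types. No fragment was counted for 4439 of the other lincRNAs, and 1057 had a mean above 0 and under 1 FPKM. Just inside the limit lay Gm26637 at 1.05 FPKM and Gm14461 at 1.14 FPKM, and just outside it lay Gm43661 at 0.973 FPKM and Gm44053 at 0.965 FPKM.

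Progranulin, a growth factor-like protein that is also found in lysosomes, is the product of Grn. All cells were labelled as macrophages recruited from the peritoneal cavity of C57BL/6J mice, plated at 2000000 cells per well, cultured overnight and challenged with the fungus for 6 hours at a ratio of 1 to 1. In the text of the study the sequenced cells are bone marrow-derived, which leaves their source unsettled, and the labels are followed here. There were 3 WT libraries, given replicate numbers 1 to 3 after their sample tags, and 3 PGRN KO libraries, given replicate numbers 4 to 6 in the same way. Nothing in the labels says that they came from separate animals, and p-values therefore measure the spread between these libraries, which may be technical. The methods of the study give different sources for the WT and the PGRN KO mice, so that the effect of the genotype and that of the colony cannot be told apart. The labels give no age for the mice from which these cells came, and unchallenged cells were not analysed here.

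The libraries held 15996786 to 17551619 counted fragments, of which the 63 lincRNAs took 0.125% to 0.175%. Grn was at 324, 337 and 325 FPKM in WT and at 0.0166, 0 and 0.0167 FPKM in PGRN KO, as the labels require. PGRN KO replicate 6 stood apart from the other libraries. It was separated from the other PGRN KO libraries on principal component 2 (22.5% of the variance), and its deviation from the mean of the libraries fell with gene length over all 8882 genes of at least 1 FPKM (Spearman correlation -0.47, against 0.15 to 0.24 in the other libraries). Many of the results that rest on this library are therefore given with and without it.

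LincRNAs work as RNA. Some build or fill nuclear bodies, some carry small RNAs in their introns or exons that are cut out and act on their own, and some act on the coding gene beside them or lie there as a by-product of its transcription. In macrophages many lincRNAs are switched on together with the inflammatory and interferon-induced genes, and they are in general less abundant and vary more than coding transcripts. The 63 lincRNAs had a median of 2.99 FPKM (range 1.05 to 51.9), against 6.43 FPKM in the 7930 coding genes above the same limit. Their gene models had a median length of 1539 bases (range 259 to 20771), against 4273 bases in coding genes. The median lincRNA was counted with 82.0 fragments in a library, and 7 of the 63 were under 20 on average. Of all 63, 38 are named Gm and a number in the table.

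To examine which lincRNAs differed between the genotypes, values were compared as log2(FPKM + 1) with limma, fitted across all 8882 genes together, and a gene was called at an adjusted p under 0.05. This scale shrinks the fold changes of genes with low FPKM. Of the 63 lincRNAs, 17 were called, 6 of them higher and 11 lower in PGRN KO. This was 27.0% of the lincRNAs, where 24.2% of all tested genes were called, 10.4% of them higher and 13.8% lower. The share of lincRNAs called was thus close to the background. It was also close to that of tested coding genes (25.4%) and of genes of the type processed transcript (11 of 38, 28.9%), while 9 of 77 antisense genes were called (11.7%). The 3 values of one group all lay above those of the other in 26 lincRNAs (41.3%), where 48.8% of all tested genes had groups that did not overlap. The median log2 fold change was -0.10 in the lincRNAs and -0.03 in all tested genes, and 28 of the 63 had a fold change above 0. The spread within groups was wider in lincRNAs, with a median SD of 0.213 on the log2 scale, against 0.147 in coding genes. Since these were bulk samples, fewer cells of a type and less RNA per cell cannot be told apart in any of these results.

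The number of calls depended on single libraries. It was 6, 7 and 8 without WT replicate 1, 2 and 3, 10 and 11 without PGRN KO replicate 4 and 5, and 22 without PGRN KO replicate 6 (10 higher and 12 lower, with 16 of the 17 calls kept). The calls over all tested genes moved alike. They were 8.03%, 9.63% and 9.94% of genes without WT replicate 1, 2 and 3, 15.6% and 18% without PGRN KO replicate 4 and 5, and 41.3% without PGRN KO replicate 6, where 34.9% of the lincRNAs were called. The count of lincRNAs was 9 on a TPM scale, where 55.6% of the calls were higher, and 12 with the sum of fragments as library size, where 58.3% were higher, against 35.3% with the deposited scaling. Over all tested genes the shares of calls that were higher were 60.3%, 62.9% and 42.8%. All 17 called lincRNAs kept their direction in every alternative tried. AW112010, AU020206, Gm49212, Gm34084 and Gm32089 were called in each of them. Calls were also counted in subsets chosen after the data were seen. They numbered 13 of 45 among lincRNAs that share little sequence with other genes, 16 of 56 among those with at least 20 fragments, and 14 of 55 among those with a mean of at least 1 FPKM in each genotype. Of the 8 lincRNAs that reached the limit with a mean under 1 FPKM in one genotype, 3 were called, all of them lower. These were Gm32089, Gm4262 and 5031425E22Rik, with PGRN KO means of 0.75, 0.80 and 0.91 FPKM. They reached the limit through their WT means alone, so that the limit fixed their direction.

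**Figure D1:**
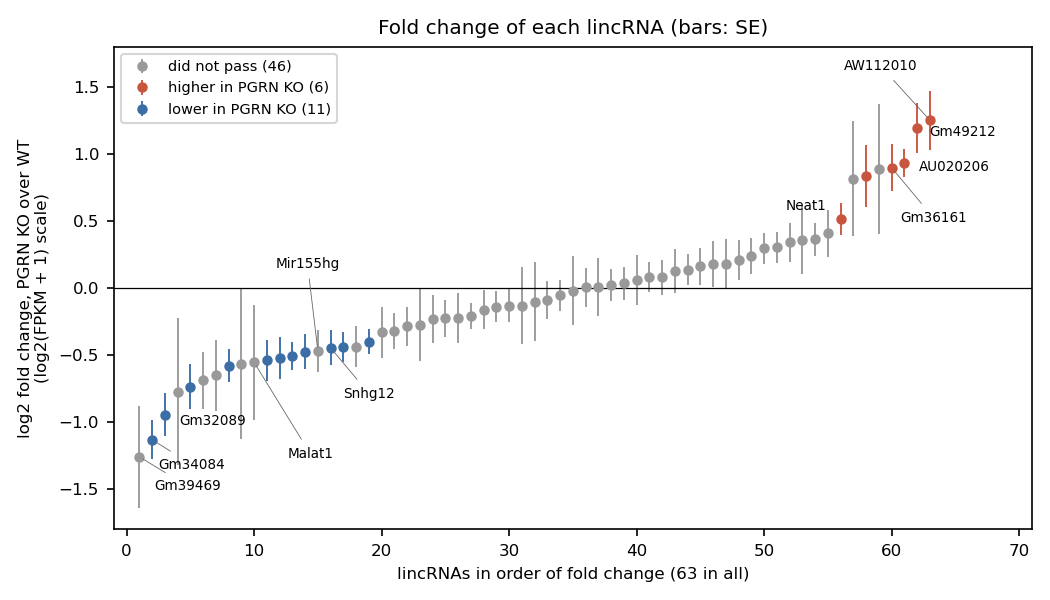
Log2 fold change (PGRN KO over WT, log2(FPKM + 1) scale, y axis) of the 63 lincRNAs in order of size (x axis), with bars of 1 SE from limma; colours mark the 6 called higher, the 11 called lower and the 46 not called. Large changes with wide bars, such as Gm39469 at -1.26, were not called, while narrow bars carried calls down to -0.40 and up from 0.52.

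On the log2(FPKM + 1) scale the largest rise was that of AW112010 (ENSMUSG00000075010, chromosome 19, 11047617 to 11050566, minus strand, GRCm38), an interferon-responsive RNA of macrophages and lymphocytes, annotated as noncoding although a translated short reading frame is known. It was at 28.9, 35.8 and 24.9 FPKM in WT and at 83.6, 51.7 and 85.5 FPKM in PGRN KO. The lowest PGRN KO value lay well above the highest WT value. The mean rose from 29.9 ± 5.53 to 73.6 ± 19.02 FPKM (SD, n = 3 each), 2.46-fold, with a log2 fold change of 1.25 ± 0.22 (SE) and an adjusted p of 0.00987 by limma. Without PGRN KO replicate 6 the log2 fold change was 1.13 (adjusted p 0.0113). By the ratio of the group means, Gm49212 (3.41-fold) and E130102H24Rik (2.58-fold) rose further. AW112010 had the highest mean of the 63 lincRNAs in PGRN KO and, over all libraries, the highest after Malat1.

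AU020206, a lincRNA on chromosome 7 (75769038 to 75782099), had the smallest SE of the 6 that rose. It was at 2.94, 2.74 and 2.83 FPKM in WT and at 6.97, 5.48 and 6.59 FPKM in PGRN KO. Its 3 WT values lay within a narrow range, and the mean was 2.24-fold higher in PGRN KO (log2 fold change 0.93 ± 0.10, adjusted p 0.00242 by limma). The transcript of Gm49212 is short, at 259 bases, and rested on few fragments. It was at 1.62, 1.04 and 0.642 FPKM in WT and at 4.46, 3.67 and 3.13 FPKM in PGRN KO, which were 7, 4 and 3 fragments against 20, 18 and 14. The groups did not overlap, with a log2 fold change of 1.19 ± 0.19 (adjusted p 0.00698 by limma).

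Gm36161 was at 18.3, 21.8 and 13.6 FPKM in WT and at 35.1, 29.7 and 36.7 FPKM in PGRN KO. It lies on chromosome 13 (120010390 to 120018931) in a family of near copies, and transcripts of other genes, foremost Gm21188, share 81.6% of the 31-base words of its exons. Its value is therefore uncertain, since reads may have been split among the copies. Gm36161 had a log2 fold change of 0.90 ± 0.17 (adjusted p 0.0132 by limma), and the adjusted p was 0.0534 without WT replicate 1. E130102H24Rik was at 1.04, 0.96 and 1.45 FPKM in WT and at 4.47, 1.90 and 2.52 FPKM in PGRN KO. PGRN KO replicate 4 was far above the other libraries of its group. For E130102H24Rik it was 0.84 ± 0.23 (adjusted p 0.0408 by limma). The value was 0.58 (adjusted p 0.0542) without PGRN KO replicate 4, and the adjusted p was 0.128, 0.134 and 0.0792 without WT replicate 1, 2 and 3.

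On the log2(FPKM + 1) scale the largest fall among called lincRNAs was that of Gm34084 on chromosome 13 (44472426 to 44504548). It was at 3.59, 4.53 and 4.74 FPKM in WT and at 1.29, 1.14 and 1.83 FPKM in PGRN KO, so that all PGRN KO values lay far below the lowest WT value. The mean in PGRN KO was 0.331 of the WT mean (log2 fold change -1.13 ± 0.14, adjusted p 0.00350 by limma). Gm32089, also on chromosome 13 (94289448 to 94295006), was at 1.85, 2.44 and 2.83 FPKM in WT and at 0.532, 0.664 and 1.07 FPKM in PGRN KO. It reached the limit of 1 FPKM only through its WT mean, so that a fall was the only direction open to it. Its groups did not overlap either, with a log2 fold change of -0.94 ± 0.16 (adjusted p 0.00839 by limma), and by the ratio of means, 0.318, it fell slightly further than Gm34084. Both are predicted genes of 4 exons whose sequence is nearly unique, with 0% and 0.3% of their 31-base words in other genes.

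Gm11216 was at 4.22, 5.73 and 4.23 FPKM in WT and at 2.61, 1.79 and 2.94 FPKM in PGRN KO, a log2 fold change of -0.74 ± 0.17 (adjusted p 0.0210 by limma). Its call was lost when any WT library was left out, with adjusted p of 0.0617, 0.0788 and 0.0566 without WT replicate 1, 2 and 3. AI839979 was at 4.58, 4.79 and 4.83 FPKM in WT and at 2.66, 2.92 and 3.57 FPKM in PGRN KO (-0.51 ± 0.11, adjusted p 0.0172). The WT values of AI839979 hardly differed, and PGRN KO replicate 6 was the nearest to them. Its adjusted p was 0.0688, 0.0733 and 0.0701 without WT replicate 1, 2 and 3, and 0.0511 and 0.0502 without PGRN KO replicate 4 and 5.

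Gm17275 was at 2.30, 1.67 and 2.24 FPKM in WT and at 1.06, 1.22 and 0.862 FPKM in PGRN KO (-0.58 ± 0.12, adjusted p 0.0184, and 0.0833 and 0.0735 without WT replicate 1 and 3). This gene lies across H3f3a, a gene of the histone variant H3.3, on the opposite strand, and transcripts of other genes, foremost H3f3a, share 25.8% of its 31-base words. No source used here states a strand setting for the counting, so reads of the 2 genes may not be told apart. H3f3a itself had a log2 fold change of -0.22 and was not called (adjusted p 0.203).

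The remaining called lincRNAs fell by 0.54 or less on the log2 scale. AI504432 had a log2 fold change of -0.54 (adjusted p 0.0460 by limma), 4833427F10Rik of -0.52 (0.0494), Gm4262 of -0.47 (0.0381), Snhg12 of -0.45 (0.0486) and 5031425E22Rik of -0.44 (0.0307). Without PGRN KO replicate 6 that of AI504432 was -0.37 (adjusted p 0.0103 by limma) and that of 4833427F10Rik -0.44 (0.0680). Gm46224 is outside the rule for named genes and is given because it completes the list. It was at 9.67, 9.36 and 8.17 FPKM in WT and at 6.65, 6.63 and 6.57 FPKM in PGRN KO (-0.40 ± 0.09, adjusted p 0.0221). The 3 PGRN KO values of Gm46224 were almost equal. The calls of AI504432, Gm4262, Snhg12 and 5031425E22Rik were lost without any of WT replicates 1, 2 and 3 or PGRN KO replicates 4 and 5, that of 4833427F10Rik without any library other than WT replicate 1, and that of Gm46224 without WT replicate 1 or 2 or PGRN KO replicate 4 or 5. Over all alternatives the adjusted p reached at most 0.151 for AI504432, 0.155 for 4833427F10Rik, 0.142 for Gm4262, 0.153 for Snhg12, 0.103 for 5031425E22Rik and 0.114 for Gm46224.

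**Figure D2:**
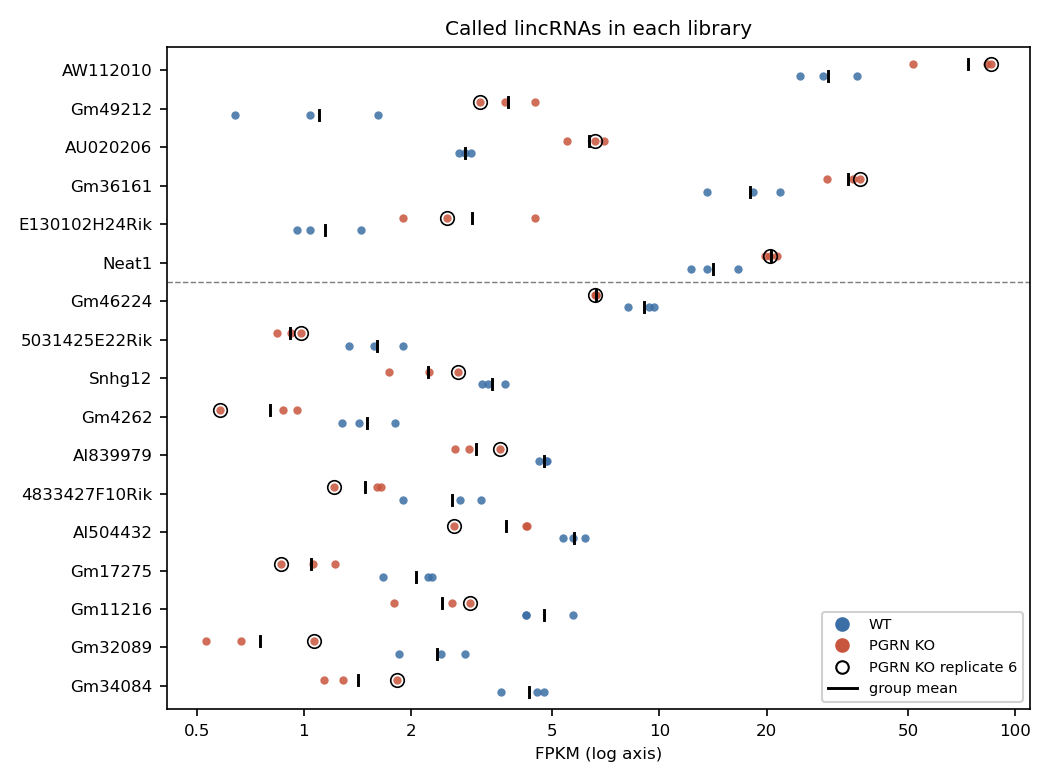
FPKM (x axis, log scale) of the 17 called lincRNAs in each library, with WT in blue, PGRN KO in red, a ring around PGRN KO replicate 6 and a black tick at each group mean; a dashed line parts the 6 that rose from the 11 that fell. In none of the 17 do the groups overlap, and PGRN KO replicate 6 lies on the WT side of its group in Gm34084 and Snhg12 and on the far side in Gm4262 and AI504432.

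Of 19 names on a list made for RNAs of the nucleus and chromatin 4 were tested, of which Neat1 rose and Malat1, Tug1 and 2900097C17Rik were not called. Of all tested genes, 24.2% were called. The list held 2900097C17Rik also under the name Norad, and this RNA is one of the cytoplasm, as given below. Tug1 is typed as antisense and had a log2 fold change of -0.57 (adjusted p 0.0907), which was -0.31 and called (0.00817) without PGRN KO replicate 6. Neat1 is the scaffold of paraspeckles, bodies in the nucleus that hold RNA-binding proteins. It was at 13.6, 12.3 and 16.6 FPKM in WT and at 21.4, 19.8 and 20.5 FPKM in PGRN KO. The lowest PGRN KO value lay above the highest WT value, and the 3 PGRN KO values were close together. The log2 fold change was 0.52 ± 0.12 (adjusted p 0.0225 by limma), 0.52 without PGRN KO replicate 6 and 0.76 after a correction of each library for gene length. The adjusted p of Neat1 was 0.0992 and 0.0877 without WT replicate 1 and 2 and 0.0648 without PGRN KO replicate 4. On a TPM scale it was 0.052. The gene model of Neat1 (chromosome 19, 5824708 to 5845478) is 20771 bases long and covers a short and a long isoform, which cannot be told apart in a value per gene. The libraries were selected for poly(A), which the long isoform and most Malat1 lack.

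Genes of paraspeckle proteins were compared with Neat1 as a list. Of 11 such genes, all tested, limma called 4 lower and 0 higher, with 4 lower and 1 higher at an unadjusted p under 0.05 and 4 lower and 0 higher by voom, where 13.8% of all tested genes were called lower and 10.4% higher. Their median log2 fold change was -0.20. Sfpq, which binds Neat1 directly and is needed for paraspeckles, fell from 37.0 ± 2.26 to 18.2 ± 0.588 FPKM (log2 fold change -0.98, adjusted p 0.0014 by limma), and its call held in every alternative. Its partner Nono had means of 15.8 ± 0.310 (WT) and 18.9 ± 1.65 FPKM (PGRN KO) and was not called (adjusted p 0.0938). Rbm14 (-0.52), Hnrnpk (-0.37) and Cpsf6 (-0.57) were the other members called. Without PGRN KO replicate 6, limma also called Nudt21 lower (-0.32, adjusted p 0.0137) and Nono higher (0.18, adjusted p 0.0374). The call of Hnrnpk was lost when any library other than PGRN KO replicate 6 was left out, with an adjusted p of at most 0.143. That of Rbm14 was lost without WT replicate 1 or 3, with an adjusted p of at most 0.0736.

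Malat1, an abundant RNA of nuclear speckles, had the highest mean of all 63 lincRNAs. It was at 59.1, 60.2 and 56.5 FPKM in WT and at 64.8, 52.7 and 17.9 FPKM in PGRN KO. PGRN KO replicate 6 alone was low, and the other PGRN KO libraries lay on either side of WT. The log2 fold change was -0.55 ± 0.43 (adjusted p 0.372 by limma) and -0.004 without that library. The lincRNAs Gdap10, at 8.97, 7.21 and 0.972 FPKM in PGRN KO against 6.28 to 7.78 FPKM in WT, and Gm26584, at 6.39, 5.63 and 0.702 FPKM against 4.48 to 8.14 FPKM, had the same pattern. Without that library their log2 fold changes were 0.17 and -0.09, against -0.56 and -0.77 with it, and neither was called. Gdap10, Gm26584 and Gm39469 fell further below the mean of the libraries than Malat1 in PGRN KO replicate 6, and no other of the 63 did. 2900097C17Rik, the mouse Norad, which binds Pumilio proteins in the cytoplasm, was at 18.1, 19.1 and 16.9 FPKM in WT and at 15.0, 16.9 and 14.5 FPKM in PGRN KO. Its log2 fold change was -0.21 ± 0.10 and was not called (adjusted p 0.149), and 44.7% of its 31-base words occur in other genes.

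Gene length was examined because of PGRN KO replicate 6. Across the 63 lincRNAs the deviation of this library from the mean had a Spearman correlation of -0.16 with gene length, a description across genes of the same libraries, against -0.47 across all tested genes. In PGRN KO replicates 4 and 5 it was 0.21 and 0.28. The log2 fold change had a correlation of 0.01 with length in lincRNAs and of -0.21 in all tested genes. Of the 21 shortest, 21 middle and 21 longest lincRNAs, 4, 7 and 6 were called. Of the lincRNAs far from the other libraries in PGRN KO replicate 6, Malat1 and Gdap10 are long and were low, and Gm39469, of 461 bases, is short and was low as well. Gm10076 was high, at 65.5 FPKM against 22.9 and 29.7 FPKM in PGRN KO replicates 4 and 5, and its log2 fold change of 0.82 (adjusted p 0.201) was 0.38 without that library. Gm10076 is a gene of 384 bases, and 84.2% of its 31-base words occur in other genes, foremost Rpl41, which encodes a ribosomal protein. Neat1, the longest of the lincRNAs, was above the mean in that library. After a loess correction of each library for length 21 lincRNAs were called, 8 higher and 13 lower, with 16 of the 17 calls kept, which was 33.3% of the lincRNAs, where 31.1% of all tested genes were called.

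**Figure D3:**
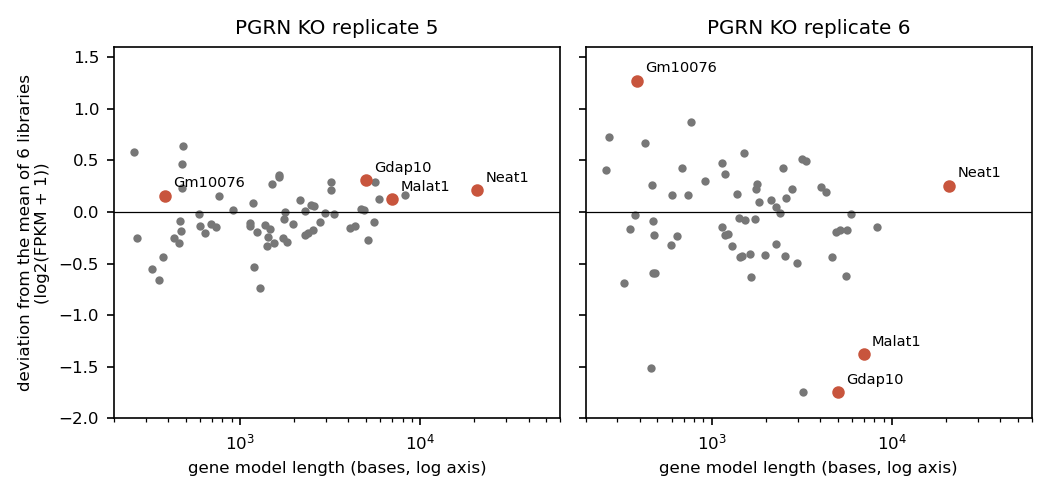
Deviation of each of the 63 lincRNAs from its mean over the 6 libraries (y axis, log2(FPKM + 1)) against the length of the gene model (x axis, bases, log scale) in PGRN KO replicate 5 and PGRN KO replicate 6. The points spread further in PGRN KO replicate 6, where Gm10076 lies far above 0 and Malat1 and Gdap10 far below, while Neat1 lies above 0 in both libraries.

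Hosts of small nucleolar RNAs (snoRNAs, guides for the modification of ribosomal RNA) were the next group. Of 21 listed hosts, 9 were tested and 3 were lincRNAs of the set, and limma and voom each called 3 of the 9 lower in PGRN KO and 0 higher, as did an unadjusted p under 0.05, where 13.8% of all tested genes were called lower and 10.4% higher. Without PGRN KO replicate 6 limma called 5 lower and 0 higher, with Epb41l4aos and Zfas1 (-0.21, adjusted p 0.0463) added. Snhg12, which carries Snora16a, Snora44, Snora61 and Snord99, was the lincRNA among them. It was at 3.16, 3.29 and 3.67 FPKM in WT and at 1.73, 2.24 and 2.72 FPKM in PGRN KO. The groups did not overlap, PGRN KO replicate 6 being nearest to WT, and without it the log2 fold change went from -0.45 to -0.55 (adjusted p 0.00835). The other hosts called were Snhg1 (-0.55, adjusted p 0.0187) and Snhg15 (-0.62, adjusted p 0.0296), both typed as processed transcripts. The calls of Snhg1 and Snhg15 were lost without WT replicate 2 or 3 or PGRN KO replicate 4 or 5, and that of Snhg15 also without WT replicate 1, with adjusted p of at most 0.0811 for Snhg1 and 0.102 for Snhg15.

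The other lincRNAs among the snoRNA hosts were not called. Snhg6, the host of Snord87, was at 16.9, 15.6 and 14.1 FPKM in WT and at 15.4, 15.3 and 23.4 FPKM in PGRN KO. PGRN KO replicate 6 alone was high. Its log2 fold change of 0.18 (adjusted p 0.481) turned to -0.02 without it. Epb41l4aos was at 10.8, 10.5 and 12.0 FPKM in WT and at 6.85, 8.84 and 17.6 FPKM in PGRN KO, with the same library high and the other PGRN KO values below all WT values. Its log2 fold change was -0.10 (adjusted p 0.825). It was -0.46 with an adjusted p of 0.0196 when PGRN KO replicate 6 was left out, and 0.16 when PGRN KO replicate 4 was.

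Some lincRNAs hold a whole microRNA (miRNA, a short RNA that silences messenger RNAs paired with its seed) within their gene model. These were described with the miRNAs they hold. The mature sequences are shown because the miRNA is the known product of these transcripts. They are taken from RefSeq (GRCm38), written 5′ to 3′, and capitals mark the seed, bases 2 to 8. No pair of them shares a seed.
mmu-miR-101a-3p in E130102H24Rik: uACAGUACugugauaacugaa
mmu-miR-101a-5p in E130102H24Rik: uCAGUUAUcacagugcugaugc
mmu-miR-142a-5p in Mir142hg: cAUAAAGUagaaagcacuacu
mmu-miR-142a-3p in Mir142hg: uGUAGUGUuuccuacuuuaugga
mmu-miR-155-5p in Mir155hg: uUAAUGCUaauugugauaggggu
mmu-miR-155-3p in Mir155hg: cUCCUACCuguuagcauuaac

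Mature miRNAs were not measured by these libraries, and the gene models of Mir101a, Mir142 and Mir155 had 0 fragments in every library, so that values are those of the host transcripts. Mir155hg, the transcript from which miR-155 of activated macrophages is made, was the third most abundant lincRNA. It was at 60.0, 62.7 and 45.3 FPKM in WT and at 45.8, 39.6 and 34.6 FPKM in PGRN KO. The groups overlapped by a narrow margin, between WT replicate 3 and PGRN KO replicate 4. Its log2 fold change of -0.47 ± 0.16 was not called (adjusted p 0.0716 by limma), and it passed when libraries were weighted by quality (adjusted p 0.0223). Mir142hg, whose miR-142 marks blood cells, was at 10.7, 12.3 and 15.5 FPKM in WT and at 15.2, 12.0 and 24.7 FPKM in PGRN KO. The groups overlapped (log2 fold change 0.36 ± 0.26, adjusted p 0.333), and the value was 0.09 without PGRN KO replicate 6. Gm26532 shares only 0.3% of its exon bases with Mir24-2, was not counted as a host and was not called (adjusted p 0.489 by limma). E130102H24Rik, given above, was the only lincRNA with a hosted miRNA that was called. It was not on the list of 12 hosts, of which 3 were tested and 0 called by limma or by voom, with 2 lower at an unadjusted p under 0.05 and a median log2 fold change of -0.30. Without PGRN KO replicate 6, Mir22hg of this list, a processed transcript, was called lower (-0.35, adjusted p 0.0204, against -0.30 and 0.0713 with it).

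A list of 18 RNAs linked to immune responses had 6 tested genes, of which AW112010 was called higher and Gm15832, a processed transcript, lower (-0.71, adjusted p 0.0119, and at most 0.0591 without WT replicate 1 or 2). Of all tested genes, 10.4% were called higher and 13.8% lower. Ptgs2os2, also known as lincRNA-Cox2, is induced together with the prostaglandin synthase gene Ptgs2 beside it. It was at 16.5, 20.1 and 14.4 FPKM in WT and at 15.3, 12.8 and 14.8 FPKM in PGRN KO. The groups overlapped (log2 fold change -0.23 ± 0.14, adjusted p 0.258). Gm14005, known as Morrbid, acts on the neighbouring gene of the death factor Bim, Bcl2l11, in short-lived myeloid cells. It was at 1.85, 2.03 and 1.88 FPKM in WT and at 2.85, 1.84 and 2.74 FPKM in PGRN KO. PGRN KO replicate 5 was level with WT, and the log2 fold change was 0.24 ± 0.13 (adjusted p 0.227). The other genes of this list were not called, but Ifi203-ps, a pseudogene, went from 0.77 (adjusted p 0.0888) to 1.03 (0.0149) without PGRN KO replicate 6.

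The 46 lincRNAs not called ranged from -1.26 to 0.89 in log2 fold change. Of these, 12 passed in at least 1 alternative and 6 passed without PGRN KO replicate 6. Over all 8882 tested genes the calls went from 2151 to 3668 without that library, with 2137 kept. The share called without it was 34.9% in the lincRNAs and 41.3% in all tested genes, so such gains were not particular to lincRNAs. These 6 lincRNAs were named after their values were seen. They were Gm47242 (1.41, adjusted p 0.0198), Gm42047 (0.60, 0.00515), 9330175E14Rik (0.39, 0.0224) and Tmem250-ps (0.24, 0.0423), which were higher, and Gm39469 (-0.82, 0.0272) and Epb41l4aos, which were lower. Gm39469 was at 7.91, 13.4 and 12.98 FPKM in WT and at 6.39, 5.39 and 1.76 FPKM in PGRN KO. It had the largest difference of all 63 on the log2(FPKM + 1) scale, though not by the ratio of means (0.395), and missed the threshold by a narrow margin (-1.26 ± 0.38, adjusted p 0.0530 by limma), its libraries being spread in both groups. Gm42047 was at 1.08, 1.15 and 1.12 FPKM in WT and at 2.44, 1.97 and 1.16 FPKM in PGRN KO, with 72.3% of its 31-base words in other genes.

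To examine whether lincRNAs moved with the genes beside them, each was paired with the nearest coding gene that was tested. The median gap between the ends of the genes was 14429 bases, and 10 pairs overlapped. In 5 pairs both genes were called and moved the same way (7.9%), and in 1 pair they moved in opposite ways. In 11 pairs only the lincRNA was called, in 7 only the neighbour, and in 39 neither. When 7925 tested coding genes were paired with their own nearest coding gene, both were called and moved the same way in 4.7% of pairs. A neighbour was called in 20.6% of the pairs with a lincRNA and in 24.9% of the pairs of coding genes. The fold changes had the same sign in 58.7% of the pairs with a lincRNA, against 54.8%, and their Spearman correlation was 0.22, against 0.13. These are descriptions across genes of the same libraries, and no difference between the kinds of pair was tested. The number of pairs moving the same way was 4 of 45 within 50 kb and 4 of 53 without overlapping pairs.

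The 5 pairs were AW112010 with Ms4a8a, Gm36161 with Gm36079, Gm11216 with Tnc, Gm34084 with Jarid2 and Gm4262 with Litaf. Ms4a8a, of the MS4A family of membrane proteins, lies 16905 bases from the deposited model of AW112010 on the same strand. It was at 14.3, 13.2 and 13.6 FPKM in WT and at 27.2, 27.3 and 34.3 FPKM in PGRN KO. Both genes thus rose, the neighbour with a log2 fold change of 1.05 (adjusted p 0.00206 by limma), and both were called in every alternative. Gm36079, 7508 bases from Gm36161, was at 0.472 to 0.774 FPKM in WT and at 1.31 to 1.61 FPKM in PGRN KO (0.56, adjusted p 0.0155). Its WT mean, 0.659 FPKM, was under the limit, so it was tested only through PGRN KO and could only rise. The value of Gm36161 is itself uncertain, as given above. The call of Gm36079 was lost without WT replicate 1 or 2 or PGRN KO replicate 4, with an adjusted p of at most 0.0736.

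Litaf, which encodes a protein of endosomes and lysosomes first found as a factor induced by bacterial lipopolysaccharide, holds Gm4262 within its body on the other strand. It was at 210, 214 and 205 FPKM in WT and at 142, 142 and 144 FPKM in PGRN KO (-0.55, adjusted p 0.00569 by limma), and it was called in every alternative. Gm4262 reached the limit only through its WT mean and could therefore only fall. It was at 1.81, 1.43 and 1.28 FPKM in WT and at 0.872, 0.96 and 0.583 FPKM in PGRN KO. It is thus far below the gene around it, and without a stated strand setting its reads cannot be told apart from those of unspliced Litaf RNA. Tnc, which encodes the matrix protein tenascin C, lies 28518 bases from Gm11216. It was at 2.62 to 2.96 FPKM in WT and at 0.968 to 1.75 FPKM in PGRN KO (-0.65, adjusted p 0.0193, and at most 0.0793 when a WT replicate was left out). Jarid2, which encodes a subunit of a Polycomb complex, lies much further from Gm34084, at 224926 bases. It was at 27.8 to 29.4 FPKM in WT and at 17.4 to 23.2 FPKM in PGRN KO (-0.45, adjusted p 0.0365). The call of Jarid2 was lost without any WT replicate or PGRN KO replicate 5, with an adjusted p of at most 0.157.

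In the pair that moved in opposite ways, AU020206 rose and Akap13, a scaffold that binds protein kinase A, fell. Akap13, 14429 bases away, was at 27.5, 29.7 and 23.7 FPKM in WT and at 17.3, 16.7 and 9.89 FPKM in PGRN KO (-0.87, adjusted p 0.0263 by limma, and at most 0.101 when a WT replicate was left out). Around other lincRNAs only the neighbour changed. The largest such change was that of Pfkfb3, an activator of glycolysis, which had 152 to 174 FPKM in WT libraries and 65.0 to 89.1 FPKM in PGRN KO libraries (-1.02, adjusted p 0.00497). Gm38171, 151559 bases from it, was at 1.75, 1.27 and 0.928 FPKM in WT and at 1.93, 1.88 and 1.09 FPKM in PGRN KO (0.18 ± 0.18, adjusted p 0.495). Ptgs2, 50816 bases from Ptgs2os2, was at 4452 to 6346 FPKM in WT and at 2416 to 3730 FPKM in PGRN KO (-0.78, adjusted p 0.0392). The call of Ptgs2 was lost when any library other than PGRN KO replicate 6 was left out, with an adjusted p of at most 0.184. The difference in fold change between these lincRNAs and their neighbours was not tested.

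**Figure D4:**
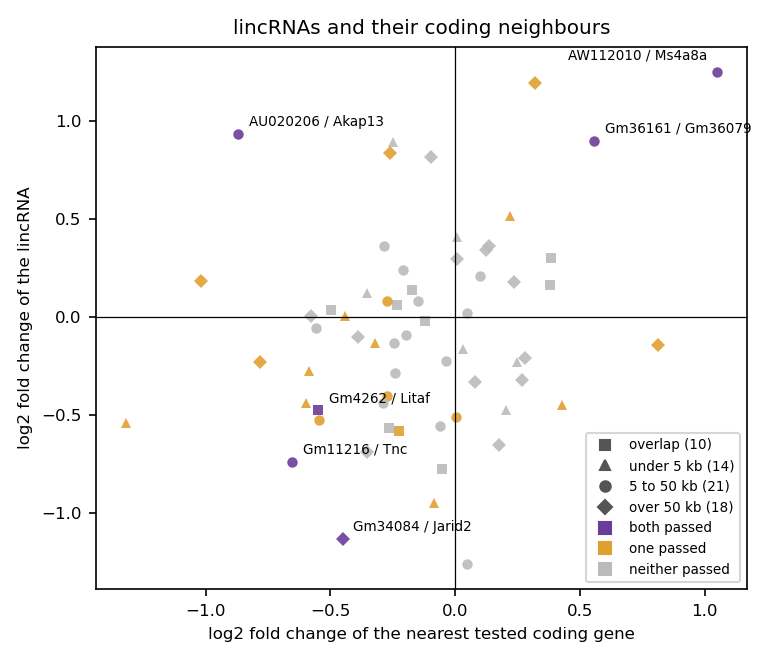
Log2 fold change of each of the 63 lincRNAs (y axis) against that of its nearest tested coding gene (x axis), with the shape of the point giving the gap between the genes and the colour whether both, one or neither was called. The 5 pairs that moved the same way lie in the upper right and lower left, and AU020206 with Akap13 lies alone among called pairs in the upper left.

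Promoter sequences were read for the lincRNAs found in a RefSeq table of GRCm38.p6, which held 32 of the 63 with 40 promoters, 11 of the 17 called among them. Each covers 250 bases before to 50 after the start. The promoters of 4 called lincRNAs whose RefSeq start lies at or close to the deposited start are shown, written 5′ to 3′ along the gene, and capitals mark a motif found by search. AW112010 and AU020206 are shown as 2 that rose in every alternative, Gm36161 and Gm4262 as called lincRNAs with a motif. They lie at chr19:11050517-11050816 (minus strand), chr7:75782071-75782370 (minus), chr13:120010092-120010391 (plus) and chr16:11008648-11008947 (plus).
AW112010: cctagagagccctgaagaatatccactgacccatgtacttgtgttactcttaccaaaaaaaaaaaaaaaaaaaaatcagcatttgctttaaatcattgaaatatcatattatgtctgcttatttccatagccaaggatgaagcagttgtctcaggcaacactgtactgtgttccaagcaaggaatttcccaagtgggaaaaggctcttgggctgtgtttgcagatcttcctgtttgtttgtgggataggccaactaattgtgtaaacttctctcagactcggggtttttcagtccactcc
AU020206: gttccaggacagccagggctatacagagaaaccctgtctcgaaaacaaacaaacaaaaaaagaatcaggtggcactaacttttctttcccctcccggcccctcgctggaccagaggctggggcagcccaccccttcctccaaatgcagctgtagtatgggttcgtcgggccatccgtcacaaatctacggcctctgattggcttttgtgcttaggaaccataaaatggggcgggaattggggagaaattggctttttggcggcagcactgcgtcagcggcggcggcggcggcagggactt
Gm36161: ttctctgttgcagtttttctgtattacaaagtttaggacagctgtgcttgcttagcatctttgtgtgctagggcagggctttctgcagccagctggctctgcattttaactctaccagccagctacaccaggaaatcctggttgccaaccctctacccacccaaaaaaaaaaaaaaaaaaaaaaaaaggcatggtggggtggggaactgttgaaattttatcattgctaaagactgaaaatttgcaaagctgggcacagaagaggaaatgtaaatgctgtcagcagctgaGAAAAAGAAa
Gm4262: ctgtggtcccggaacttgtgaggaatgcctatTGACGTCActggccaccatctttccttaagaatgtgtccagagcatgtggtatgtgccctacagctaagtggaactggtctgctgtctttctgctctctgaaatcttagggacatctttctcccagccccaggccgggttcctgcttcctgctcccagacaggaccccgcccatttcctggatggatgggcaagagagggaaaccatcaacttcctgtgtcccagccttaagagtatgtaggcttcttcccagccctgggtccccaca

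Each motif was searched on both strands. The core of the interferon-stimulated response element (GAAANNGAA) was in 7 of the 40 promoters of lincRNAs and in 8.56% of all 32851 promoters of the table. Most of these windows lie far from the deposited start. The RefSeq start was offset by 54967 bases in Gm31718, 9856 in Mir155hg, -5921 in Gm13391, 4337 in 1810058I24Rik and 1417 in Gm46224. In Ptgs2os2 and Gm36161 the offset was 0 and -48 bases. Windows far from the deposited start may not be promoters of the transcripts measured. The gamma-activated site (TTCNNNGAA) was in 3 of the 40 and in 8.30% of all, the AP-1 site (TGANTCA) in 3 and in 7.81%, the cAMP response element (TGACGTCA) in 1 and in 1.79%, and the kappaB letters GGGANTTTC in 0 and in 1.11%. The match of Gm36161 was to the core of the interferon-stimulated element, after the start, and that of Gm4262 to the cAMP response element, at -218. None of these letters stood in the windows of AW112010 and AU020206. Other forms of the motifs, those of kappaB among them, were not searched. In the GENCODE M21 annotation AW112010 starts further upstream, at 11055808, and the sequence around that start was not searched. Among the other called lincRNAs a match was found in Gm46224, to GAAANNGAA at -104 from a RefSeq start that is not the deposited one. A match describes letters and is not a binding site, and a window without one says nothing about the factor.

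The labelled cell type was compared with marker genes, since lincRNAs are often particular to a cell type. Beside the calls given here, 10.4% of all tested genes were called higher and 13.8% lower. The macrophage markers Adgre1, Cd68, Csf1r, Lyz2, Itgam and Mertk were all measured, with a sum of 7082 to 7416 FPKM in WT and 7231 to 9715 FPKM in PGRN KO, of which Mertk was called higher and Csf1r lower. The markers of resident large peritoneal macrophages summed to 6.98 to 7.61 FPKM in WT and 9.27 to 10.1 FPKM in PGRN KO, with Icam2 called higher of 2 tested. Markers of B cells summed to 1.501 to 2.495 FPKM in WT and 6.62 to 8.92 FPKM in PGRN KO (Cd79a and Cd79b called higher, 2 of 2 tested). Those of mast cells summed to 1.42 to 1.75 and 5.44 to 7.35 FPKM (Cma1 called higher, the only one tested). Those of neutrophils summed to 79.7 to 87.0 and 52.6 to 54.2 FPKM (S100a8 called lower, 1 of 3 tested). This sum came from S100a8, Mmp8 and Csf3r, with means of 36.6, 19.9 and 11.6 FPKM over all libraries. Of the other neutrophil markers, Ly6g had 0 fragments and S100a9 a mean of 0.112 FPKM. Those of T cells summed to 3.17 to 3.84 and 3.69 to 7.35 FPKM, with 0 of 2 tested genes called by limma or voom and 0 at an unadjusted p under 0.05. No marker of eosinophils, dendritic cells or fibroblasts and mesothelium was above the limit of the test. Their sums were 0.058 to 0.249 FPKM (WT) and 0.0176 to 0.0863 FPKM (PGRN KO) for eosinophils, 1.77 to 2.23 and 1.08 to 1.36 FPKM for dendritic cells, and 1.05 to 1.17 and 1.88 to 3.38 FPKM for fibroblasts and mesothelium. The sums overlapped between the genotypes for macrophages, T cells and eosinophils and for none of the other lists. Of all tested genes, 48.8% had groups that did not overlap. Genes of the last 2 lists went both ways. Means of Col1a1, Col1a2 and Dcn (from 0.490 to 1.35 FPKM) were higher in PGRN KO and those of Msln, Upk3b and Krt19 lower. Those of Flt3 and Xcr1 (from 1.16 to 0.388 FPKM) were lower and that of Zbtb46 (from 0.550 to 0.698 FPKM) higher. The part of these cells in the changes of the lincRNAs was not tested.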

How the data were processed

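RNA was measured in 3 WT and 3 PGRN KO libraries of 150 bp read pairs, selected for poly(A). The authors deposited FPKM per gene. The submitters' processing notes name HISAT2 2.0.5, featureCounts 1.5.0-p3, DESeq2 1.20.0 and GRCm38, whereas the methods of the study name HISAT and HTSeq. The deposited FPKM times gene length gave whole fragments (tolerance 0.001 of a step) for 100.0% of values above 0 in each library. The authors' scaling between libraries is part of the deposited values.

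FPKM were analysed as log2(FPKM + 1) with limma 3.58.1 in R 4.3.3 (two-sided, empirical Bayes, variance trend, no covariate) over 8882 genes with a mean of at least 1 FPKM, with Benjamini-Hochberg adjustment and a threshold of 0.05. An exact permutation test of 3 against 3 libraries cannot go below p = 0.1, which all 17 called lincRNAs reached. The limma step was also run on simulated fragments, with the same dispersion for all genes and no outlying library. That simulation does not match PGRN KO replicate 6 or the wider spread of lincRNAs and says nothing on how the step handles them. Of the lincRNAs, 61 of 63 had the coordinates of GENCODE M21, all but AW112010 and A930007I19Rik. AW112010 reaches from 11047612 to 11055808 there, so that its start on the minus strand lies further upstream. A930007I19Rik and Gm26724 are typed antisense in GENCODE M21. Shared sequence is the percent of 31-base words of a gene's transcripts found in those of other genes, and little sharing means under 10% of words and of exon bases. The gap to a neighbour is the distance between nearest ends.

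The members, lists, rules and tests were chosen with earlier results of these data known. Named lincRNAs were the 10 largest changes among calls in each direction, the 8 highest means, members of the lists, members whose neighbour was called with a log2 fold change of at least 1 in size, and those at the edge of the FPKM limit. Lists not given in full in the text were made by hand. Alternatives were pseudocounts of 0.1 and 0.01, no filter, at least 5 FPKM, a TPM scale, quantile normalization, fragment sums, no trend, quality weights, voom on recovered fragments, a loess correction for length (span 0.5) and leaving out each library.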

Additional observations from a re-analysis of the deposited data

How the results depend on the processing

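No paired analysis was made because the labels do not say whether WT and PGRN KO libraries were matched. The count of 17 called lincRNAs moved to 8 without a filter on low values, where many more genes were tested, to 5 at a minimum of 5 FPKM, where 20 lincRNAs were tested, to 9 on a TPM scale and to 26 with quality weights, which gave PGRN KO replicate 6 a weight of 0.090. In these 4 settings 12.7%, 25%, 14.3% and 41.3% of the lincRNAs tested were called. The shares over all tested genes were 5.96%, 30.5%, 17.2% and 47.6%. Leaving out 1 library gave 6 to 22 calls, 3 to 10 of them higher and 3 to 12 lower. The 6 lincRNAs called higher became 3 at a minimum of 5 FPKM, 10 with quality weights and 10 with the length correction and PGRN KO replicate 6 left out. The 11 called lower became 7 with a pseudocount of 0.01, 4 without a filter, 2 at a minimum of 5 FPKM, 4 on a TPM scale and 5 with fragment sums. The median log2 fold change of -0.101 became -0.174 with a pseudocount of 0.01, -0.155 at a minimum of 5 FPKM, -0.054 on a TPM scale, -0.011 with fragment sums, -0.149 with voom and -0.178 with the length correction, and it ranged from -0.004 to -0.098 when 1 library was left out. Of 487 comparisons of the 28 named lincRNAs with an alternative, 399 kept their direction and their side of the threshold, 78 lost the call, 5 gained it and 5 turned in direction. None of those that turned was called in the setting that turned it. They were Epb41l4aos without PGRN KO replicate 4 (0.16, range -0.46 to 0.16 when 1 library was left out), Malat1 with the length correction and PGRN KO replicate 6 left out (0.007), and Snhg6 with quality weights (-0.052), without PGRN KO replicate 6 (-0.016, range -0.016 to 0.28) and with both the length correction and that library left out (-0.025). The cause of these shifts was not tested. Depth limits the 7 lincRNAs with under 20 fragments per library, Gm49212 among them.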
